A study of Rattus norvegicus with 18 samples.

Results

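Chemokine and homing receptors are the genes described here, namely *Ccr1*, *Ccr2*, *Ccr3*, *Ccr4*, *Ccr8*, *Cxcr3*, *Cxcr4*, *Cxcr6* and *Gpr15*. They were chosen by gene name, with earlier results of these data known, from the 32882 gene rows that each of 3 rat tables holds. Of the 9, 8 have a row under that name. *Ccr2* has none and was not analysed here. Of the 8, 5 reached a mean normalized count of at least 10 in each of the 3 tables (*Ccr3*, *Cxcr3*, *Cxcr4*, *Cxcr6* and *Gpr15*) and were tested, whereas *Ccr1*, *Ccr4* and *Ccr8* stayed below it everywhere.

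The libraries came from T-MBP cells, CD4+ T cells of Lewis rats that recognize myelin basic protein (MBP) and induce a disease resembling multiple sclerosis when injected. In all 6 groups the cells had been grown in culture, restimulated with MBP, transferred into Lewis rats and taken out on day 3. Control cells had received Cas9 with a non-targeting (NT) guide and carried BFP, and KO cells had received Cas9 with a guide to *Ets1* or *Grk2* and carried GFP. The colour therefore differs between control and KO cells in every comparison, and the KO cells are edited populations, not clones. The 18 libraries form 6 groups of 3. Cells edited for *Ets1* and their controls were sorted from the parenchyma of the spinal cord and from the spleen, and cells edited for *Grk2*, again with controls, from the spleen alone. Each group of KO cells had its own control group. The labels number the libraries R1 to R3 and give no animal. Rats of both sexes were used, aged 5 to 20 weeks, with no age given per library.

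Chemokine receptors are receptors with 7 membrane-spanning segments that sense gradients of small secreted proteins and, through inhibitory G proteins, direct the movement and the integrin-mediated adhesion of leukocytes. After binding their ligand they are phosphorylated by kinases such as GRK2, bound by arrestins and taken into the cell. In autoimmune disease of the central nervous system they are studied as signals for the passage of T cells from blood into tissue. ETS1 is a transcription factor of lymphocytes that binds DNA at a GGAA core.

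The guides define the 2 edits, and those that the study lists for rat cells are shown here, 5′ to 3′. No rat genome sequence was used here, so their sites are not placed, and no letters are set in capitals.
Ets1: tgctgctcggagttaacagt
Grk2: gatttgtcagaacctccgag
Non-targeting: gctgcatggggcgcgaatca

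Promoter windows of 300 bases (250 before and 50 after the start of transcription, RefSeq, build GRCr8) were found for 7 of the 9 receptors. The windows of *Ccr3* and *Gpr15* are shown because *Ccr3* fell in 2 of the 3 comparisons below and *Gpr15* rose in 2 of them. Capitals mark GGAAG on the printed strand or CTTCC, its complement on the other strand, which is the ETS core with 1 following base. The windows lie at chr8:132499999-132500298 and chr11:55367246-55367545, both on the plus strand, and these coordinates are not those of the count tables.
Ccr3: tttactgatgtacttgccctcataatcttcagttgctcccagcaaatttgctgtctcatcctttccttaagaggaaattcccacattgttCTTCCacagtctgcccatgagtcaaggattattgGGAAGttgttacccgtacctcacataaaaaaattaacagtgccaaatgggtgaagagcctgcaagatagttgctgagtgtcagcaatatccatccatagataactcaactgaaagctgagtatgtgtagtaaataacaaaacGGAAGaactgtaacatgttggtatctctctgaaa
Gpr15: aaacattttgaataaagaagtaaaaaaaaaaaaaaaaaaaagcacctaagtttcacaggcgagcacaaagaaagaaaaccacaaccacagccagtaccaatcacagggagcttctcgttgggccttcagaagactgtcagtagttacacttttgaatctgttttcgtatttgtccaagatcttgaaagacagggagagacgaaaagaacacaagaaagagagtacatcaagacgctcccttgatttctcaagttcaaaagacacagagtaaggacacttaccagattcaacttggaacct

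GGAAG or its complement occurred 3 times in the *Ccr3* window, 5 times in that of *Cxcr3*, 2 times in that of *Cxcr6* and 1 time in that of *Ccr2*, and not in those of *Cxcr4*, *Gpr15* and *Ccr1*. Of the 33469 promoter windows of the table, 70.06% hold it. The longer forms CCGGAAGT and AGGAAGT, which contain the same core, are found in 3.81% and 8.41% of all windows. Among the 7 receptors AGGAAGT was found only in *Cxcr3*, 2 times, and CCGGAAGT in none. The T-box motif GGTGTGA, found in 3.83% of all windows, was in neither the *Ccr3* nor the *Gpr15* window.

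Each library held between 898092 and 2248258 reads on genes, of which mitochondrial genes took 14.1% to 27.4%. Library R3 of the *Ets1*-KO spleen cells stood apart from R1 and R2, with a chi-square per degree of freedom of 8.95 and 9.23 over genes, against at most 4.6 between any other replicates, and with 21.0% mitochondrial reads against 14.1% and 14.9%. Values without it and the control library of the same number are given with the spleen results, and its part in them was not tested. The reads come from transcript 3′ ends and do not show the edit, so the level of an edited gene need not fall: *Ets1* was at 2400 ± 150 normalized counts in the control libraries and 2551 ± 183 in *Ets1*-KO parenchyma cells (SD, n = 3) and at 2077 ± 135 and 2000 ± 325 in the spleen, which neither supports nor contradicts the labels. *Grk2* was lower in *Grk2*-KO cells, at 68.3 ± 17.4 against 158 ± 14.1 (log2 fold change −1.22, limma adjusted p = 1.76e-12). T cell markers summed to between 2680 and 3500 RPM in each library (RPM, a gene's reads divided by the library's reads on genes and multiplied by 1000000), with 9 of the 9 listed genes that have a row detected in every group. Eosinophil, basophil and mast cell markers, which matter here because such cells also carry CCR3, summed to at most 3.14 RPM, and *Epx*, *Prg2*, *Prg3*, *Ms4a2*, *Cpa3* and *Fcer1a* had no read in any group. Of the 14 myeloid markers, 10 and 11 had a read in control and *Ets1*-KO parenchyma cells, with sums between 20.7 and 36.9 and between 31.9 and 54 RPM, against at most 9.95 in the spleen groups. B cell markers summed to at most 11.5 RPM in any library, and *Pax5* and *Cd22* had no read. *Cd8b* had no read in any group and *Cd8a* reached at most 7.2 RPM. Neural and microglial markers summed to between 34.5 and 64 RPM in the parenchyma groups and between 17.3 and 36.5 in those of the spleen. In bulk libraries fewer expressing cells and less RNA per cell cannot be told apart.

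At this depth 3 of the 8 receptors with a row were at the limit of detection. *Ccr1*, a receptor for CCL3 and CCL5, had 3 reads in 1 parenchyma control library and 0 in the other 17. *Ccr8*, a receptor for CCL1 found on type 2 and regulatory T cells, had 2 reads in 1 spleen control library of the *Ets1* table and 0 in all others. A count of 0 allows up to 3 reads, which is between 1.33 and 3.34 RPM depending on the library. *Ccr4*, a receptor for CCL17 and CCL22, had between 0 and 6 reads per library and a highest normalized count of 5.18. None of these 3 receptors can be compared between groups at this depth.

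Levels in control cells of the parenchyma and of the spleen did not overlap for *Ccr3*, which was higher in the parenchyma, and for *Gpr15*, which was higher in the spleen. These levels are RPM, computed from the recovered reads because the 3 tables were normalized separately, and they were not tested. Tissue also goes with isolation (a Percoll gradient for the cord, lysis of red cells and CD4 enrichment for the spleen), which cannot be told apart from it. Of all 6207 genes that reached the count minimum in the 3 tables, 24% had 3 parenchyma control libraries that did not overlap with the 6 spleen control libraries, and of the 5 receptors 2 did, *Ccr3* and *Gpr15*. By the deposited normalized counts, which were scaled within each table and so are not on a common scale, 3 did, *Cxcr3* being the third, higher in the parenchyma. The share of all genes was taken by RPM only, so this count has none beside it.

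*Ccr3*, the receptor for eotaxins that is best known from eosinophils and is also found on type 2 T cells, was at 297.5, 312 and 350 RPM in the parenchyma control libraries. It was at 81.3, 88.2 and 129 in the spleen controls of the *Ets1* table and at 162, 208 and 212 in those of the *Grk2* table. The lowest parenchyma library was thus above the highest spleen library. The parenchyma mean was 3.21 times that of the first spleen group and 1.65 times that of the second, and the spleen groups did not overlap each other either.

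*Gpr15*, a receptor that directs T cells to the large intestine and the skin, went the other way. It was at 40.1, 55.5 and 59.1 RPM in the parenchyma, at 184, 210 and 297 in the spleen controls of the *Ets1* table and at 84.8, 129 and 137 in those of the *Grk2* table. All 6 spleen libraries were above all 3 parenchyma libraries, and the means were 4.46 and 2.26 times the parenchyma mean.

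The other 3 tested receptors overlapped between tissues in RPM. *Cxcr3*, the receptor of type 1 T cells for the interferon-induced ligands CXCL9, CXCL10 and CXCL11, was at 327 ± 10.9 RPM in the parenchyma, 303 ± 16.2 in the first and 248 ± 15.2 in the second spleen group (SD, n = 3). *Cxcr4*, the receptor for CXCL12, was at 120 ± 28.8, 95.4 ± 17.0 and 175 ± 32.6 in the same order. *Cxcr6*, the receptor for CXCL16, was at 36.9 ± 4.77, 17.4 ± 15.98 and 36.6 ± 1.34. The wide spread of the second value came from 1 library, R3 of the spleen controls to *Ets1*-KO, which is also the shallowest and had 35.6 RPM against 5.77 and 10.8 in the other two.

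**Figure D1:**
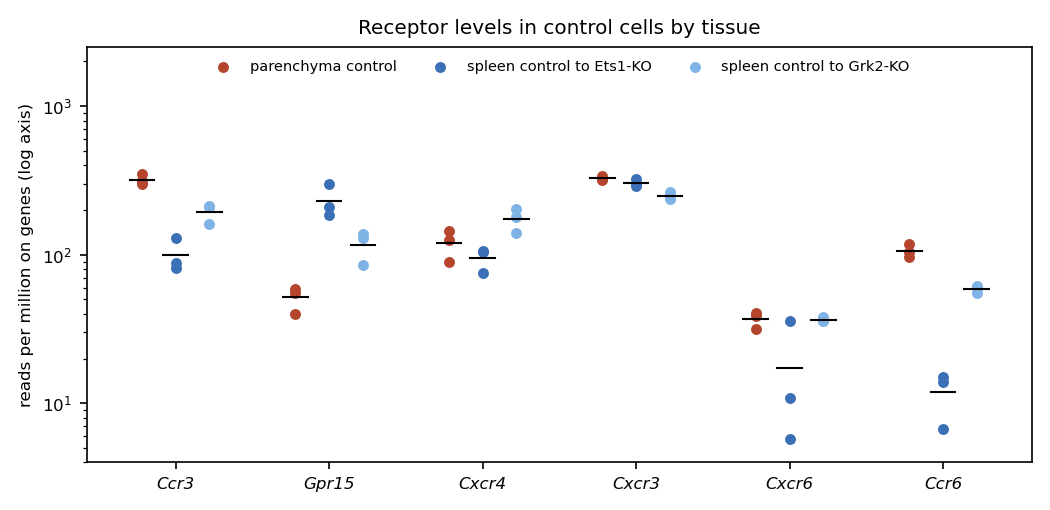
RPM, reads per library scaled to a common total (log axis), of the 5 tested receptors and of *Ccr6* in the 9 control libraries, with 1 point per library and the group mean as a bar, for parenchyma (red), spleen controls to *Ets1*-KO (dark blue) and spleen controls to *Grk2*-KO (light blue). *Ccr3* lies between 297.5 and 350 in the parenchyma, above all spleen libraries, and *Gpr15* lies between 40.1 and 59.1, below them.

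The effect of *Ets1* editing on the receptors of cells that had reached the cord was asked in the parenchyma. There *Ccr3* fell by 49.9% and no other of the 5 receptors passed the test, so that 1 of 5 was called where 5.23% of all 7002 tested genes were called. The median log2 fold change of the 5 receptors was −0.17 and that of all tested genes −0.03.

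*Ccr3* (chromosome 8, 133029624 to 133040997, plus strand, Rnor_6.0) was at 489, 433 and 440 normalized counts in control libraries R1 to R3 and at 270, 202 and 213 in the *Ets1*-KO libraries. All KO libraries were below all control libraries, and each pair of the same number fell. From a mean of 454 ± 30.3 it went to 228 ± 36.4 (SD, n = 3). The log2 fold change was −0.997 (SE 0.10, 95% confidence interval −1.19 to −0.80, limma adjusted p = 2.45e-21). Among the 207 genes called lower it ranked 33 by size. The exact permutation test of this gene alone gave p = 0.1, the smallest value that 3 against 3 libraries allow. The call was kept in all 13 alternatives that let the variance follow the expression level (highest adjusted p = 3.61e-08), and lost without that trend (adjusted p = 0.167).

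The other 4 receptors did not pass. *Gpr15* was at 77.5, 58.3 and 83.5 normalized counts in control libraries and 113, 73.8 and 96.3 in *Ets1*-KO libraries, higher in 3 of 3 pairs with overlapping groups (log2 fold change 0.36, adjusted p = 0.188). *Cxcr3* was at 474, 462 and 459 against 403, 412 and 426. Its groups did not overlap, yet the log2 fold change of −0.17 had a confidence interval from −0.34 to 0.01 (adjusted p = 0.34).

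*Cxcr4* was at 124, 212 and 178 in control and 132, 150 and 118 in *Ets1*-KO libraries (−0.33, adjusted p = 0.102), and without replicate 1 its value was −0.54 with an adjusted p of 0.0138. *Cxcr6* was at 43.9, 56.4 and 57.0 against 79.9, 66.7 and 54.4 (0.34, adjusted p = 0.334). *Cxcr6* lies whole, over 1057 bases, within *Fyco1* on the opposite strand. Whether the counting used strand is not given in the sources used here, so reads of the pair could not be told apart without it.

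Beside these values stand 2 genes from the lists of markers of other cells, which rose in the same libraries. *Il2ra*, listed with regulatory T cells and also a gene of activated T cells, rose from 658 ± 17.3 to 1011 ± 46.6 normalized counts, and *Gzma*, a granzyme listed with NK cells, from 56.2 ± 9.3 to 108 ± 10.9. *Il2ra* was the 1 called of 3 tested regulatory T cell markers, where 5.23% of all genes were called. Of that list *Ctla4* (0.24) and *Tnfrsf18* (−0.18) did not pass. The NK genes *Ncr1*, *Klri1* and *Kir3dl1* had no read there. The part of these markers, and of the higher myeloid sum, in the receptor values was not tested.

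**Figure D2:**
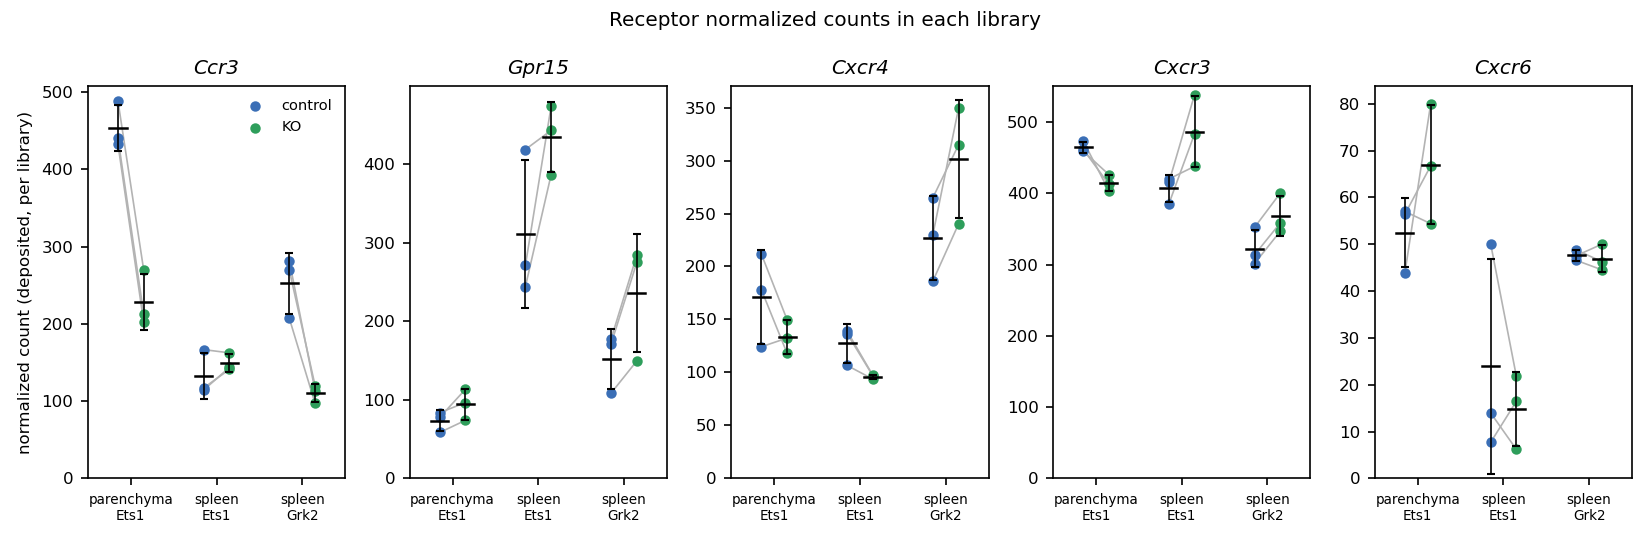
Deposited normalized counts of the 5 tested receptors in each of the 18 libraries, control in blue and KO in green, with grey lines joining libraries of the same number and black bars for the mean ± SD of 3 libraries. *Ccr3* in the parenchyma lies between 433 and 489 in control and between 202 and 270 in *Ets1*-KO libraries, and in the *Grk2* table between 207 and 281 against 96.9 and 120.

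In the spleen, where the same edit was examined outside the cord, *Ets1*-KO cells showed no such fall of *Ccr3*. *Gpr15* rose and was the only 1 of the 5 receptors called, where 2.22% of all 6979 tested genes were called. The median log2 fold change of the receptors was 0.19 and that of all tested genes 0.00.

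*Ccr3* was at 117, 167 and 114 normalized counts in the control libraries and 141, 162 and 144 in *Ets1*-KO libraries. The groups overlapped, and 2 of 3 pairs were higher in KO. The log2 fold change was 0.19 (SE 0.14, 95% confidence interval −0.11 to 0.48, adjusted p = 0.607), an interval that does not reach down to the change measured in the parenchyma.

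*Gpr15* was at 244, 271 and 418 normalized counts in the control libraries and 386, 473 and 443 in *Ets1*-KO libraries. It was higher in 3 of 3 pairs, but control library R3 overlapped the KO group. The log2 fold change was 0.51 (SE 0.13, confidence interval 0.25 to 0.78, limma adjusted p = 0.0339), or 42.9% higher, near the threshold. It did not pass without the replicate block (adjusted p = 0.14), without replicate 1 or 2 (at most 0.626) or by DESeq2 with no block (0.0754). Over the 13 alternatives with the trend the adjusted p ranged from 0.000127 to 0.626.

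*Cxcr4* was lower in all 3 pairs, at 139, 137 and 107 in control and 97.2, 96.8 and 93.7 in *Ets1*-KO libraries, and the groups did not overlap. Its log2 fold change of −0.40 did not pass (adjusted p = 0.217). *Cxcr3* went the other way, at 385, 415 and 420 against 483, 538 and 438, again without overlap and without passing (0.25, adjusted p = 0.321). *Cxcr6*, at 7.66, 14.0 and 50.1 against 16.4, 6.20 and 21.9, was too low and too variable for a statement (−0.40, confidence interval −1.23 to 0.43). Without replicate 3, whose *Ets1*-KO library stood apart, *Gpr15* still passed (0.73, adjusted p = 0.000127), and *Ccr3* (0.12, 0.817), *Cxcr3* (0.35, 0.134) and *Cxcr4* (−0.50, 0.0943) still did not.

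The effect of *Ets1* editing was then compared between the tissues directly, on the log2 ratio of each pair. The ratios of the tissues were taken as independent, and the labels do not say whether libraries of a number share an animal. *Ccr3* was the 1 receptor of 5 whose effect differed, where 2.1% of 6520 genes did. Its effect was 1.18 lower in the parenchyma than in the spleen on the log2 scale (difference −1.18, SE 0.17, confidence interval −1.52 to −0.84, limma adjusted p = 2.17e-05), and without replicate 3 the difference was −1.09 (adjusted p = 0.0023). The adjusted p stayed at or under 0.0023 in all 10 alternatives with the trend and was 0.16 without it. *Cxcr3*, which was lower in the parenchyma and higher in the spleen, had a difference of −0.42 that did not pass (adjusted p = 0.119). For *Gpr15* the difference was −0.16 with an interval from −0.54 to 0.23 (adjusted p = 0.788), so that its call in the spleen alone does not show that the tissues differ. Those of *Cxcr4* (0.06, interval −0.35 to 0.48) and *Cxcr6* (0.74, interval −0.12 to 1.61) did not pass either. *Gzma* and *Il2ra* differed between the tissues too, by 1.39 and 0.72 (adjusted p = 0.0205 and 0.00347), and their part in the *Ccr3* difference was not tested. *Ctla4* (−0.30) and *Tnfrsf18* (−0.15), listed with regulatory T cells like *Il2ra*, did not pass.

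On the common scale of RPM, *Ccr3* in *Ets1*-KO parenchyma cells (162 ± 27.0) remained above both spleen groups of the *Ets1* table (112 ± 11.4 in *Ets1*-KO and 99.5 ± 25.8 in control, which overlapped each other). The labels do not say whether parenchyma and spleen cells came from the same experiment. The 6 groups ordered as parenchyma control, spleen control to *Grk2*-KO, *Ets1*-KO parenchyma, *Ets1*-KO spleen, spleen control to *Ets1*-KO and *Grk2*-KO spleen. Of neighbours in this order, only parenchyma control and *Grk2* spleen control cells, and *Ets1*-KO parenchyma and *Ets1*-KO spleen cells, did not overlap. For *Gpr15* the order ran from *Ets1*-KO spleen (324 ± 34.2) through its control, *Grk2*-KO spleen and its control (117 ± 28.0) to *Ets1*-KO (66.9 ± 14.5) and control parenchyma cells (51.6 ± 10.1), and the only neighbours that did not overlap were the *Grk2* table's spleen controls and the *Ets1*-KO parenchyma cells.

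*Grk2*-KO cells were compared with control cells of the spleen to see what loss of the kinase did to the receptors' own transcripts. *Ccr3* fell by 55.9%, *Gpr15* and *Cxcr4* rose, and *Cxcr3* and *Cxcr6* did not pass. Thus 3 of 5 receptors were called where 1.56% of all 6985 tested genes were called. Since the receptors were chosen with earlier results of these data known, this count does not test them as a group. The median log2 fold change of the receptors was 0.19 and that of all tested genes 0.02.

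*Ccr3* was at 207, 269 and 281 normalized counts in the control libraries and 96.9, 120 and 114 in *Grk2*-KO libraries. The groups were far apart and all 3 pairs fell. The log2 fold change was −1.18 (SE 0.11, 95% confidence interval −1.40 to −0.97, limma adjusted p = 8.38e-17), and among the 44 genes called lower it ranked 9 by size. It passed in all 13 alternatives with the trend, with a highest adjusted p of 0.00368, but not without the trend (0.328).

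*Gpr15* was at 108, 177 and 171 normalized counts in the control libraries and 149, 284 and 275 in *Grk2*-KO libraries. Library R1 was the lowest of both groups, so that the groups overlapped although each pair rose. The log2 fold change was 0.60 (SE 0.10, confidence interval 0.40 to 0.81, limma adjusted p = 2e-05), or 52.1% higher. The call was lost in 4 of the 13 alternatives with the trend. Without the replicate block the adjusted p was 0.237, without replicate 2 it was 0.197, and by DESeq2 it did not pass with or without the block.

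*Cxcr4* was at 230, 265 and 186 in control and 349, 315 and 240 in *Grk2*-KO libraries, higher in 3 of 3 pairs with overlapping groups. The log2 fold change was 0.41 (SE 0.09, adjusted p = 0.00462), or 32.4% higher. This call too was lost in 5 of the 13 alternatives with the trend. They were no replicate block (0.294), without replicate 1 (0.309), without replicate 2 (0.22) and DESeq2 with and without the block (0.94 without it).

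*Cxcr3* was at 301, 314 and 352 in control and 347, 358 and 400 in *Grk2*-KO libraries (0.19, confidence interval 0.02 to 0.36, adjusted p = 0.379). *Cxcr6* was nearly level, at 48.8, 46.6 and 47.6 against 46.3, 44.5 and 50.0 (−0.02, interval −0.40 to 0.35). In the same libraries *Il2ra* fell from 265 ± 50.1 to 199 ± 40.6 normalized counts and *Tnfrsf18*, also listed with regulatory T cells, from 117 ± 6.5 to 78.8 ± 20.8. They were 2 of 3 tested genes of that list, where 1.56% of all genes were called, and *Ctla4* (−0.18) did not pass. The part of these markers in the receptor values was not tested.

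The 2 edits were compared within the spleen on the same log2 ratios, each against its own controls. The effects differed for *Ccr3* and *Cxcr4*, 2 of 5 receptors, where 1.94% of 6490 genes differed. The effect on *Ccr3* was higher with *Ets1* than with *Grk2* editing by 1.37 (SE 0.18, confidence interval 1.01 to 1.73, limma adjusted p = 1.02e-05, at most 0.0173 in the 10 alternatives with the trend). That on *Cxcr4* was lower by 0.80 with *Ets1* editing (difference −0.80, SE 0.17, adjusted p = 0.00704), since *Cxcr4* was lower in all 3 *Ets1* pairs and higher in all 3 *Grk2* pairs. It did not pass without replicate 1 (0.349) or 2. Without replicate 3 the differences were 1.24 for *Ccr3* (adjusted p = 0.00426) and −0.93 for *Cxcr4* (0.0347). *Gpr15* was higher in all 6 pairs, and its difference of −0.09 had an interval from −0.43 to 0.25 (adjusted p = 0.891).

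**Figure D3:**
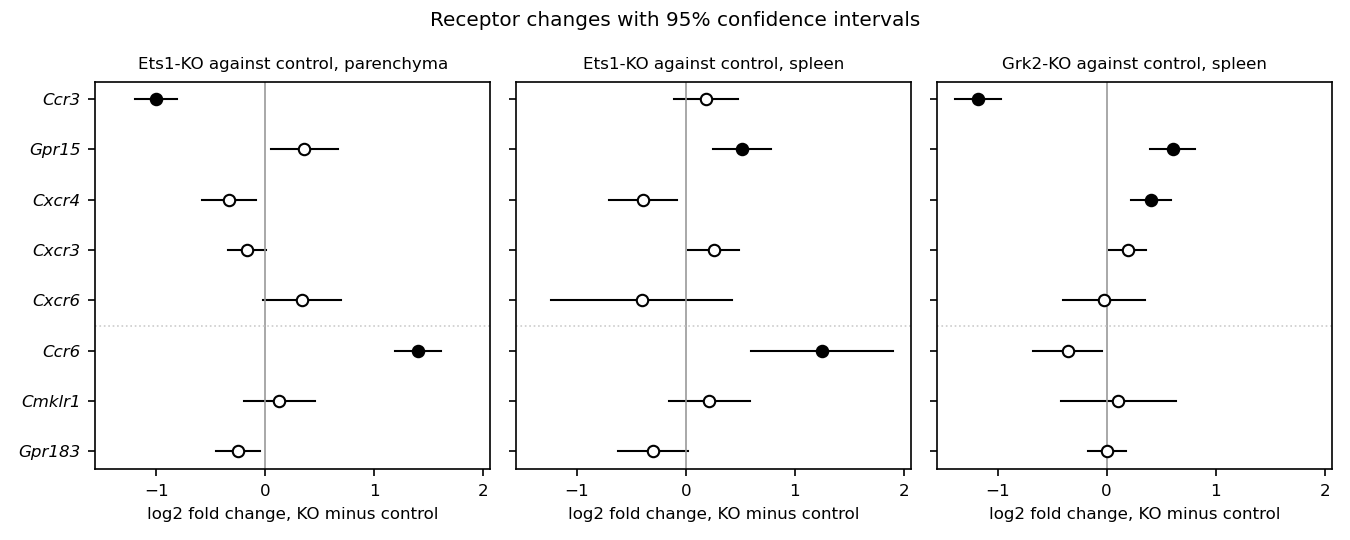
Log2 fold changes of KO against control with 95% confidence intervals for the 5 tested receptors and, below the dotted line, for *Ccr6*, *Cmklr1* and *Gpr183*, in the 3 comparisons. Filled points passed an adjusted p of 0.05: *Ccr3* (−0.997) and *Ccr6* (1.40) in *Ets1*-KO parenchyma cells, *Gpr15* (0.51) and *Ccr6* (1.25) in *Ets1*-KO spleen cells, and *Ccr3* (−1.18), *Gpr15* (0.60) and *Cxcr4* (0.41) in *Grk2*-KO spleen cells.

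Among 17 further receptors of the family, 16 have a row and 4 reached the count minimum in each comparison. In each *Ets1* comparison 1 of the 4 was called, *Ccr6*, and in the *Grk2* comparison 0 of 4 by limma, edgeR or DESeq2 (1 of 4 at an unadjusted p under 0.05). Of all tested genes 5.23%, 2.22% and 1.56% were called in *Ets1*-KO parenchyma, *Ets1*-KO spleen and *Grk2*-KO spleen cells. In the same order the medians of the 4 were 0.36, 0.16 and 0.05 on the log2 scale. Those of all tested genes were −0.03, 0.00 and 0.02. *Ccr6*, the receptor for CCL20 on type 17 T cells, rose in *Ets1*-KO parenchyma cells from 147, 140 and 167 normalized counts to 374, 398 and 431 (log2 fold change 1.40, SE 0.11, adjusted p = 1.78e-36). *Ccr3* and *Ccr6* thus moved apart in the same libraries, each without overlap between the groups. In *Ets1*-KO spleen cells *Ccr6* rose from 18.6, 19.4 and 9.40 to 23.3, 57.7 and 38.1 (1.25, SE 0.32, adjusted p = 0.0343), a call lost without the block and without replicate 1, 2 or 3 (at most 0.195), and in *Grk2*-KO cells it was at −0.36 (adjusted p = 0.383). The effect did not differ detectably between tissues (difference 0.15, interval −0.41 to 0.72). It differed between the edits by 1.61 (SE 0.34, adjusted p = 0.00696), but not without replicate 2 (0.171) or 3 (0.154).

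*Gpr183*, the oxysterol receptor EBI2, had log2 fold changes of −0.25, −0.30 and 0.00 in *Ets1*-KO parenchyma, *Ets1*-KO spleen and *Grk2*-KO spleen cells, passed in none of them and lies whole within *Ubac2* on the opposite strand. *Cmklr1*, the chemerin receptor, was at 0.13, 0.22 and 0.11 in the same order and did not pass, with directions that turned in 2 comparisons when a replicate was left out. *Gpr18* (0.58 in the parenchyma and 0.37 in *Grk2* cells) and *Cx3cr1* (0.10 in *Ets1* spleen cells, with its sign turned by quantile normalization) were low and did not pass.

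Among chemokine ligands, 3 of 5 tested genes of 28 listed were higher and 0 lower in *Ets1*-KO parenchyma cells, with a median log2 fold change of 0.60 against −0.03 for all tested genes, of which 5.23% were called. *Ccl3* rose from 319 ± 51.8 to 482 ± 64.6 normalized counts (0.60, adjusted p = 3.27e-08), *Ccl4* from 1165 ± 270 to 1809 ± 348 (0.64, adjusted p = 4.63e-16, and 0.178 by DESeq2 with no block) and *Ccl5* from 2010 ± 231 to 2614 ± 255 (0.38, adjusted p = 2.95e-06). CCL3 and CCL5 are ligands of CCR1 among other receptors, and the *Ccr1* transcript was barely detected here. In the spleen *Ccl5* was the 1 called ligand of 4 in *Ets1*-KO cells, beside 2.22% of all genes called. There it rose from 905 ± 50.1 to 1578 ± 116 (0.80, adjusted p = 0.000166, and 0.188 without replicate 1). In *Grk2*-KO cells it was the 1 called of 2, beside 1.56% of all genes called. There it fell from 518 ± 144 to 335 ± 30.9 (−0.59, adjusted p = 3.2e-07), a call lost without the block (0.0684), without replicate 2 (0.48) and in DESeq2. The effect on *Ccl5* differed between the edits by 1.39 (SE 0.16, adjusted p = 9.16e-07). Those on *Ccl3* and *Ccl4* differed between the tissues by 1.03 and 1.57 (adjusted p = 0.00408 and 6.52e-06), that on *Ccl3* not without replicate 3 (0.117).

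Genes that carry the receptor signal changed in small numbers. Of 18 tested signalling genes in the parenchyma 2 were lower and 0 higher, where 5.23% of all genes were called: *Was*, the actin regulator WASP, fell from 655 ± 55.4 to 465 ± 53.6 (−0.50, adjusted p = 1.07e-06), and *Rac2*, a small GTPase of leukocytes, from 1550 ± 63.1 to 1268 ± 28.5 (−0.29, adjusted p = 0.00302, and 0.131 or 0.2 without replicate 1 or 2). The median of the 18 was −0.06 on the log2 scale. In the spleen 0 of 15 signalling genes passed in *Ets1*-KO and 0 of 18 in *Grk2*-KO cells by limma, edgeR or DESeq2 (1 and 3 at an unadjusted p under 0.05). Of all genes 2.22% and 1.56% were called there by limma. The effect of *Ets1* editing differed between tissues for *Was* (−0.69, adjusted p = 0.00421) and *Rasgrp2*, an activator of Rap1 in integrin adhesion (−0.75, adjusted p = 0.0415). The first was lost without replicate 1 (0.182) or 2 (0.0734) and the second without any 1 of the 3 replicates (0.16 to 0.211).

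Of 11 tested genes that switch receptors off, 2 were higher in *Ets1*-KO parenchyma cells and 0 lower, beside 5.23% of all genes called. The median of the 11 was −0.16 on the log2 scale and that of all tested genes −0.03, so the list did not rise as a whole. *Rgs16* rose from 82.8 ± 20.4 to 175 ± 15.7 (1.10, adjusted p = 2.33e-13) and *Rgs2* from 277 ± 21.2 to 352 ± 27.5 (0.35, adjusted p = 0.0132), both regulators that shorten G protein signals. The call of *Rgs2* was lost without any 1 of the replicates (0.0601 to 0.176) and by DESeq2 (0.317 with the block, 0.101 without it). In the spleen 0 of 10 passed in *Ets1*-KO cells by limma, edgeR or DESeq2 (1 at an unadjusted p under 0.05), and in *Grk2*-KO cells the edited *Grk2* was the 1 of 9. Of all genes 2.22% and 1.56% were called in these 2 comparisons by limma.

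Of 11 tested regulators of T helper programmes, 2 were higher in *Ets1*-KO parenchyma cells, beside 5.23% of all genes called there (2.22% in *Ets1*-KO and 1.56% in *Grk2*-KO spleen cells): *Tbx21*, the type 1 regulator T-bet, rose from 548 ± 10.2 to 697 ± 37.6 (0.35, adjusted p = 0.00169), and *Batf* from 168 ± 16.1 to 231 ± 28.2 (0.46, adjusted p = 0.00268). Without replicate 2 neither passed (0.107 and 0.376), nor by DESeq2 with the block (0.0573 and 0.272). *Maf* was the 1 of 10 called in *Ets1*-KO spleen cells (from 109 ± 9.4 to 163 ± 29.1, 0.57, adjusted p = 0.0422). That call was lost without replicate 1 or 3 (0.594 and 0.157), with no block (0.0962) and by DESeq2 with the block (0.112). In *Grk2*-KO cells 0 of 11 passed by limma, edgeR or DESeq2 (1 at an unadjusted p under 0.05). Among other homing molecules (integrins, selectin and S1P receptor genes and *Cd44*), *Cd44*, the hyaluronan receptor, was the 1 of 9 called in the parenchyma and fell from 158 ± 13.6 to 105 ± 13.7 (−0.59, adjusted p = 0.000484, and 0.138 by DESeq2 with the block). In *Grk2*-KO cells 2 of 10 were higher, *Cd44* (364 ± 42.7 to 485 ± 27.7, 0.42, adjusted p = 0.000408) and *Itgb1*, the β1 integrin chain (3376 ± 117 to 4341 ± 94.0, 0.36, adjusted p = 5.52e-05). The call of *Cd44* there was lost without replicate 1 or 2 (0.261 and 0.144), with no block (0.076) and by DESeq2 (0.372 with the block, 0.172 without it). In *Ets1*-KO spleen cells 0 of 10 passed by limma, edgeR or DESeq2, and 0 at an unadjusted p under 0.05.

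Over all 18 libraries, with log2 values centred within each table, the genes whose pattern was most like that of *Ccr3* among 6207 were *Lef1* (Pearson r = 0.82), *Vcpip1* (0.79) and *Rab3gap2* (0.78). *Gpr15* was most like *Arid5a* (0.85), *Dstyk* and *Sptlc1* (both 0.79). *Cxcr4* was most like *Stt3b* (0.95), *Actr3* (0.84) and *Lrch4* (0.80), *Cxcr3* like *Ypel5*, *Stom* (both 0.84) and *Dcaf11* (0.82), and *Cxcr6* like *Patl1* (0.89), *Usp9x* (0.84) and *Snrpd3* (0.81). The points share libraries, depth and the 6 groups, and these values are descriptions only.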

How the data were processed

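3′ bulk mRNA-seq of 18 libraries was used. According to the methods and the submitters' processing notes, the authors aligned reads without trimming to Rnor_6.0 with STAR 2.7.2b, counted them per gene with HTSeq 1.0.0 and divided them by DESeq2 2.11.40.7 size factors. The deposited signal values are these normalized counts. In every library 100% of positive values were multiples of 1 step (tolerance 0.01), which gave back whole reads. Replicate libraries differed by more than sampling noise (chi-square of 1.48 to 9.23 per degree of freedom). Human values (8 per-sample columns in all), the authors' own comparisons and the screens were not used. Of the receptor family, 1 further gene is not reported here.

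Genes with a mean of at least 10 were tested on log2(normalized count + 1), whose fold changes understate those of low genes, with limma 3.58.1 (eBayes with a trend, two-sided, Benjamini-Hochberg over all tested genes, threshold 0.05), with replicate number as a block. That a number marks 1 animal was taken from the co-transfer of control and KO cells and is not in the labels. Deviations of same-numbered libraries correlated between −0.003 and 0.175, not above 0.1 in every pair. Differences between effects were tested on log2 ratios of the pairs, with no block across the 2 tables compared. With 2 residual degrees of freedom the fits lean on the trend. Its prior degrees of freedom were infinite in the parenchyma, 21.97 in the *Ets1* spleen fit and 141.3 in the *Grk2* spleen fit. In the parenchyma the spread used for a gene was therefore that of the trend over all genes, not its own. Separate animals are not shown, so p-values rest at most on spread between libraries, shared over genes, and not on spread between animals. Single genes had exact permutation tests over 20 labellings.

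The receptors and gene lists were chosen with earlier results of these data known. Named are all receptors, *Ets1*, *Grk2*, every further receptor above the minimum, up to 4 called genes of each other list by size, and the 3 most alike genes of each receptor. Alternatives were no block, no trend, pseudocounts of 0.1 and 5, leaving out each replicate, no filter or a minimum of 50, quantile and upper quartile normalization, edgeR 4.0.16 and DESeq2 1.42.0. The fits were also run on simulated counts, with the same dispersion for all genes and no replicate effect. Such counts cannot show how far the trend holds in these libraries.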

Additional observations from a re-analysis of the deposited data

Results flagged for a closer look

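Effects of an edit that differed between tissues or between edits, by a limma test of the difference itself, are listed here with their values on the log2 scale. The effect of *Ets1* editing differed between parenchyma and spleen for *Ccr3* (−1.18), *Ccl3* (1.03), *Ccl4* (1.57), *Was* (−0.69) and *Rasgrp2* (−0.75). Of the marker genes, *Gzma* (1.39) and *Il2ra* (0.72) differed too. The call of *Ccl3* was lost without replicate 3, that of *Was* without replicate 1 or 2, and that of *Rasgrp2* without any 1 replicate. Within the spleen, the effects of *Ets1* and *Grk2* editing differed for *Ccr3* (1.37), *Cxcr4* (−0.80), *Ccr6* (1.61), *Ccl5* (1.39) and, as the edited gene, *Grk2* (1.37, adjusted p = 0.052 without replicate 2). The call of *Cxcr4* was lost without replicate 1 or 2 and that of *Ccr6* without replicate 2 or 3. No group has more than 3 libraries, so single libraries were not tested for standing apart from their group.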

How the results depend on the processing

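The fall of *Ccr3* in *Ets1*-KO parenchyma and *Grk2*-KO spleen cells and both of its differences kept their direction in all alternatives and passed in all that kept the trend. Without the trend 0 of 5 receptors were called in each of the 5 comparisons, so every receptor call depends on it (the 3 fits of KO against control then called 3, 0 and 0 of all genes, against 366, 155 and 109 with the trend). Without the replicate block the number called was 1 in the parenchyma, 0 in *Ets1*-KO spleen cells and 1 in *Grk2*-KO cells, against 1, 1 and 3 with it. DESeq2 called 1 in *Grk2*-KO cells with the block and 1 without, and in *Ets1*-KO spleen cells 0 without it. With 1 replicate removed at a time the number ranged from 1 to 2 in the parenchyma, from 0 to 1 in *Ets1*-KO and from 1 to 3 in *Grk2*-KO spleen cells, and from 1 to 2 for the comparison of the edits. The cause was not tested. Control levels did not overlap between tissues for 2 receptors by RPM, where 24% of 6207 genes did not. By the deposited normalized counts, scaled within each table, they did not overlap for 3, with no share of all genes taken.

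The count of all genes called moved widely: in the parenchyma from 366 to 200 with no block, 212 with no filter and 84 by DESeq2 with the block, in *Ets1*-KO spleen cells from 155 to 71 with no block, 242 with no filter, 238 by edgeR and 3 without replicate 1, and in *Grk2*-KO cells from 109 to 19 with no block, 60 with a minimum of 50, 13 by DESeq2 and 9 without replicate 2. Without a replicate the tissue difference fell from 137 to as few as 26 and that of the edits from 126 to as few as 19.

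Signs turned only for values that did not pass. With a replicate left out, ranges on the log2 scale were −0.092 to 0.366 for *Cmklr1* in the parenchyma and −0.27 to 0.41 in *Grk2* cells, −0.141 to 0.0086 for *Ets1* in the *Ets1* spleen cells, −0.0685 to 0.0043 for *Cxcr6* and −0.0419 to 0.0641 for *Gpr183* in *Grk2* cells. The tissue differences ranged from −0.29 to 0.50 for *Ccr6*, from −0.20 to 0.30 for *Cxcr4* and from −0.293 to 0.0009 for *Gpr15*, and those between the edits from −1.11 to 0.045 for *Cxcr6* and from −0.24 to 0.16 for *Gpr15*. *Cx3cr1* was at −0.0135 with quantile normalization, and *Gpr183* in *Grk2* cells at −0.0083 with it, −0.0216 with upper quartile scaling, −0.0181 by edgeR with the replicate block and −0.0033 by DESeq2 with no block. Over 66 results for single genes, 736 values kept direction and call, 93 lost the call, 1 gained it and 16 turned sign. For 11 values DESeq2 gave no adjusted p. Neither other scaling moved the median of all genes by as much as 0.1. With 3 libraries per group and 898092 to 2248258 reads each, *Ccr1*, *Ccr4* and *Ccr8* could not be compared.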
